A study of Mus musculus with 11 samples.

Results

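The collagen and laminin genes encode the structural chains of the extracellular matrix, and their levels were followed in cultured neural progenitor cells (NPCs) and in single cells of the embryonic mouse cortex with and without Syncrip, an RNA-binding protein. They were chosen by name alone, as all symbols made of Col, a number, a and a number, or of Lama, Lamb or Lamc and a number. This gave 55 genes, 44 collagens and 11 laminins, all of them listed both among the 48440 genes of the count table of the cultures and among the 32285 genes of the single-cell libraries. No measured value entered the choice.

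A collagen chain carries stretches in which glycine returns with a period of 3 residues, and 3 such chains wind into a rope-like helix. Fibrillar collagens build fibrils, the FACIT collagens sit on the surface of fibrils, and collagen IV forms the mesh of basement membranes. A laminin molecule joins 1 alpha, 1 beta and 1 gamma chain and forms the other polymer of the same membranes. In the embryonic cortex such membranes lie under the meninges, where the radial fibers of the apical progenitors (APs) end, and around the vessels, and neurosphere cultures of progenitors also make matrix of their own.

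RNA-seq had been done on primary NPC cultures of E14.5 embryos, grown with the mitogens EGF and bFGF, with 3 cultures labelled WT and 3 labelled cKO. Single-cell RNA-seq had been done on the dorsal telencephalon of 1 WT and 1 cKO embryo of the same litter, also at E14.5. The cKO animals carry Syncrip alleles with loxP sites on both sides of exons 2 to 4 (Syncrip fl/fl) and Emx1-Cre, a recombinase active in dorsal telencephalic progenitors and their descendants. Endothelial cells, pericytes, meningeal cells, microglia and the interneurons that arrive from the ganglionic eminences (GE) descend from other cells, so a gene in them was read in cells that this Cre is not known to reach. The sources used here do not say whether the cultures came from separate embryos, so p-values measure the spread between these cultures, which may be technical, and the single-cell comparison has no replicate and no test.

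The cultures held 16962903 to 22708400 counts each. Their levels are given in CPM, counts-per-million of a culture's total over genes that passed the low-count filter, scaled by TMM. The 55 genes took 696, 810 and 809 CPM of the WT and 853, 936 and 884 CPM of the cKO cultures. The WT and cKO embryos gave 8214 and 9560 cells after filters on detected genes (200 or more) and mitochondrial counts (10% or less), with medians of 11705 and 11012.5 unique molecular identifiers (UMIs, 1 per captured transcript), and 22 barcodes occurred in both libraries. Syncrip itself lay at 77.9, 79.8 and 79.9 CPM (WT) against 90.3, 88.7 and 81.5 CPM (cKO) in the cultures (log2 fold change 0.13, adjusted p = 0.18, edgeR), and at 314 and 322 CPM of UMIs in the APs of the WT and the cKO embryo. Both numbers count reads of the whole gene or of its 3′ end and do not check the loss of exons 2 to 4. Y-linked genes had 22062 UMIs in the WT and 211 in the cKO library, so genotype and sex cannot be told apart there, which touches the X-linked Col4a5 and Col4a6. Among the cultures, WT 1, WT 2 and cKO 1 had 8899, 5903 and 9232 Y-linked counts and the others at most 1. Markers of endothelial cells summed to 8.45 to 13.8 CPM in the cultures with Cdh5 and Cldn5 at 0, those of microglia to 0.891 to 2.74 CPM, and those of APs to 7629 to 9159 CPM, with Sox2 at 0. Those of pericytes summed to 271 to 347 CPM and those of meningeal fibroblasts to 340 to 383 CPM. Which cells of the cultures gave these marker counts was not tested. All 10748 genes of the table that lie wholly inside another gene, Sox2 and Col10a1 among them, are listed at 0 in every culture, so a 0 of such a gene says nothing of its level.

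The glycine rhythm of the collagens can be read in their exons, some of which are shown. On GRCm38 (mm10), in the coding transcripts of GENCODE M21, glycine codons (GGN) with a period of 3 codons ran without a break for 337 to 344 triplets in Col1a1, Col1a2, Col2a1, Col3a1, Col5a1, Col5a2, Col5a3, Col11a1 and Col11a2. The longest run was 113 triplets in Col9a1, 40 in Col4a1, which has 23 separate runs, and 42 in Col4a5, whereas no laminin exceeded 3. Col24a1 and Col27a1, also fibrillar, had longest runs of 216 and 217. The FACIT genes Col12a1 and Col19a1 had 32 and 57 and Col4a2 had 66, so run length does not separate FACIT from collagen IV genes. Many exons of the fibrillar genes are exactly 54 bases long and hold 6 triplets, 31 of 65 internal coding exons in Col11a1 and 24 of 52 in Col2a1, against 2 of 50 in Col4a1. A 54-base exon of each of 6 members is given 5′ to 3′ on the coding strand, with the glycine codons in capitals: Col11a1 (chr3:114108281-114108334, plus strand), Col2a1 (chr15:97998545-97998598, minus strand), Col3a1 (chr1:45325360-45325413, plus strand), Col9a1 (chr1:24202014-24202067, plus strand), Col4a1 (chr8:11245211-11245264, minus strand) and Col4a5 (chrX:141575988-141576041, plus strand).
Col11a1 exon 15: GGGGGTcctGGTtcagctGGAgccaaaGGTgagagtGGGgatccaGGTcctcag
Col2a1 exon 6: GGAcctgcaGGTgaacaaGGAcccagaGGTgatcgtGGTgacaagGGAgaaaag
Col3a1 exon 6: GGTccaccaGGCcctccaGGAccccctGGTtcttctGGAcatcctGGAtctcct
Col9a1 exon 11: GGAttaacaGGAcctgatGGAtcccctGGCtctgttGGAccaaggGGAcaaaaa
Col4a1 exon 7: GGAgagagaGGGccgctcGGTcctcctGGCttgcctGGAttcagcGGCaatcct
Col4a5 exon 7: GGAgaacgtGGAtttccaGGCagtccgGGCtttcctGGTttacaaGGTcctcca
Each exon opens on a glycine codon and every triplet in it starts with one, although the other letters differ between the genes. The exons were picked for their glycine codons, so they illustrate the rhythm and do not show how common it is. In Col4a5, as in Col4a1, exons of this length were rare, 3 of 51 internal coding exons.

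The cells of the cortex were grouped into 11 classes from marker genes after clustering on genes other than the 55, and a class name stands for cells that resemble the type by these markers. The 55 genes were read most heavily in the rare cells of vessels and meninges. Endothelial cells, pericytes and meningeal fibroblasts were 153 of 8214 WT cells (1.86%) and 176 of 9560 cKO cells (1.84%), but held 44.1% (95% exact binomial interval 43.5 to 44.7) and 43.0% (42.4 to 43.5) of all collagen and laminin UMIs. Endothelial cells alone held 23.4% and 17.7%, and meningeal fibroblasts 12.2% and 20.1%. Intervals on single-cell values cover counting error only.

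**Figure D1:**
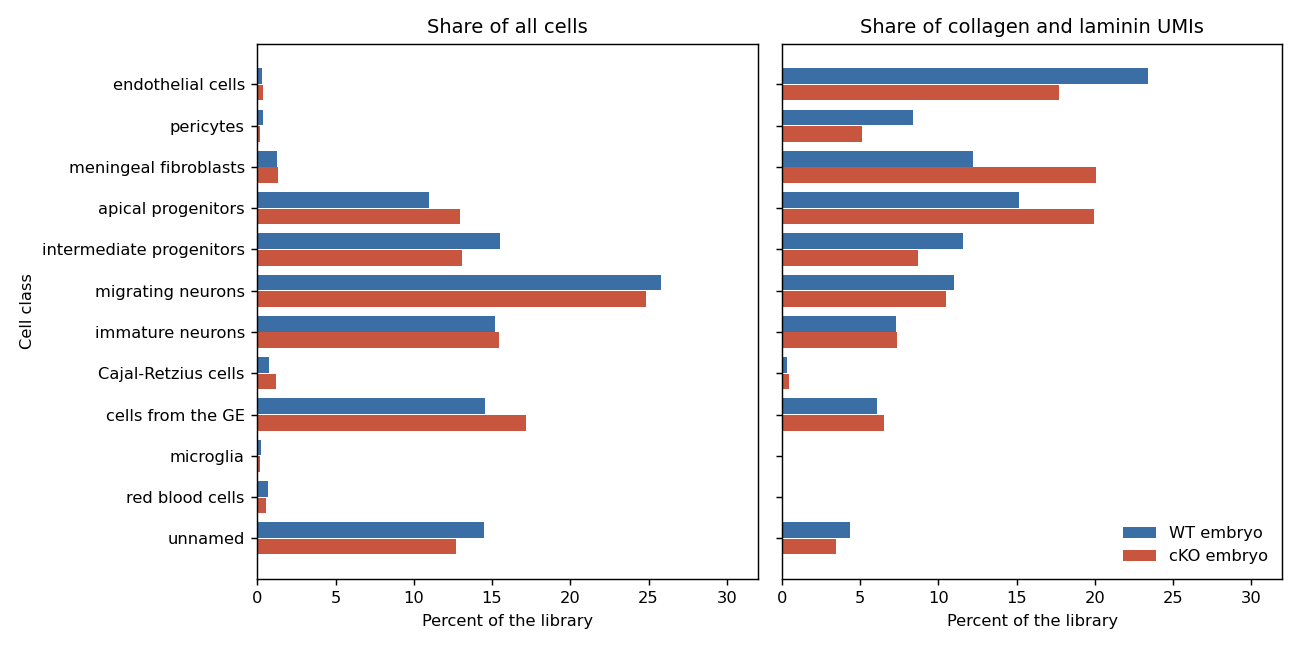
Horizontal bars give, for each cell class (vertical axis), its percent of all cells (left) and of all collagen and laminin UMIs (right) in the WT (blue) and the cKO (red) library. Endothelial cells, pericytes and meningeal fibroblasts together make 1.86% and 1.84% of the cells and 44.1% and 43.0% of the UMIs.

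Relative to all UMIs of a class, in CPM of UMIs, the 55 genes together reached 7818 in the WT and 8015 in the cKO meningeal fibroblasts, 5876 and 5959 in pericytes, and 4917 and 4635 in endothelial cells. APs followed at 316 in both libraries, then intermediate progenitors (IPs) at 176 and 155, cells from the GE at 144 and 131, migrating neurons at 107 and 108, Cajal-Retzius cells at 99.2 and 104, and immature neurons at 90.9 and 90.6. Red blood cells and microglia, at 53.5 and 39.6 and at 40.3 and 47.8, were lowest. Red blood cells, with 12 and 9 UMIs of the 55 genes, serve here as a rough level that free RNA can give. Among the neural classes the APs thus had the highest summed level in both libraries. 3 clusters with 1192 WT and 1216 cKO cells were left without a name.

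Of the 55 genes, 39 had at least 100 UMIs over both libraries, and 31 of these had their highest level in the same class in both. Meningeal fibroblasts were the highest class of 17, pericytes of 5, endothelial cells of 4, APs of 3, and cells from the GE and migrating neurons of 1 each. For 16 of the 31 the interval of the highest class lay above that of the next class in both libraries. Some of the others rest on few UMIs in that class, such as Col11a2 in meningeal fibroblasts (1 and 3) and Col9a2 in endothelial cells (4 and 6). Col9a1 led in migrating neurons at only 1.26 and 1.45 CPM. The remaining 8 genes had different highest classes in the libraries, among them Lama5, Lamb2 and Col16a1, and 16 genes had too few UMIs to be placed.

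**Figure D2:**
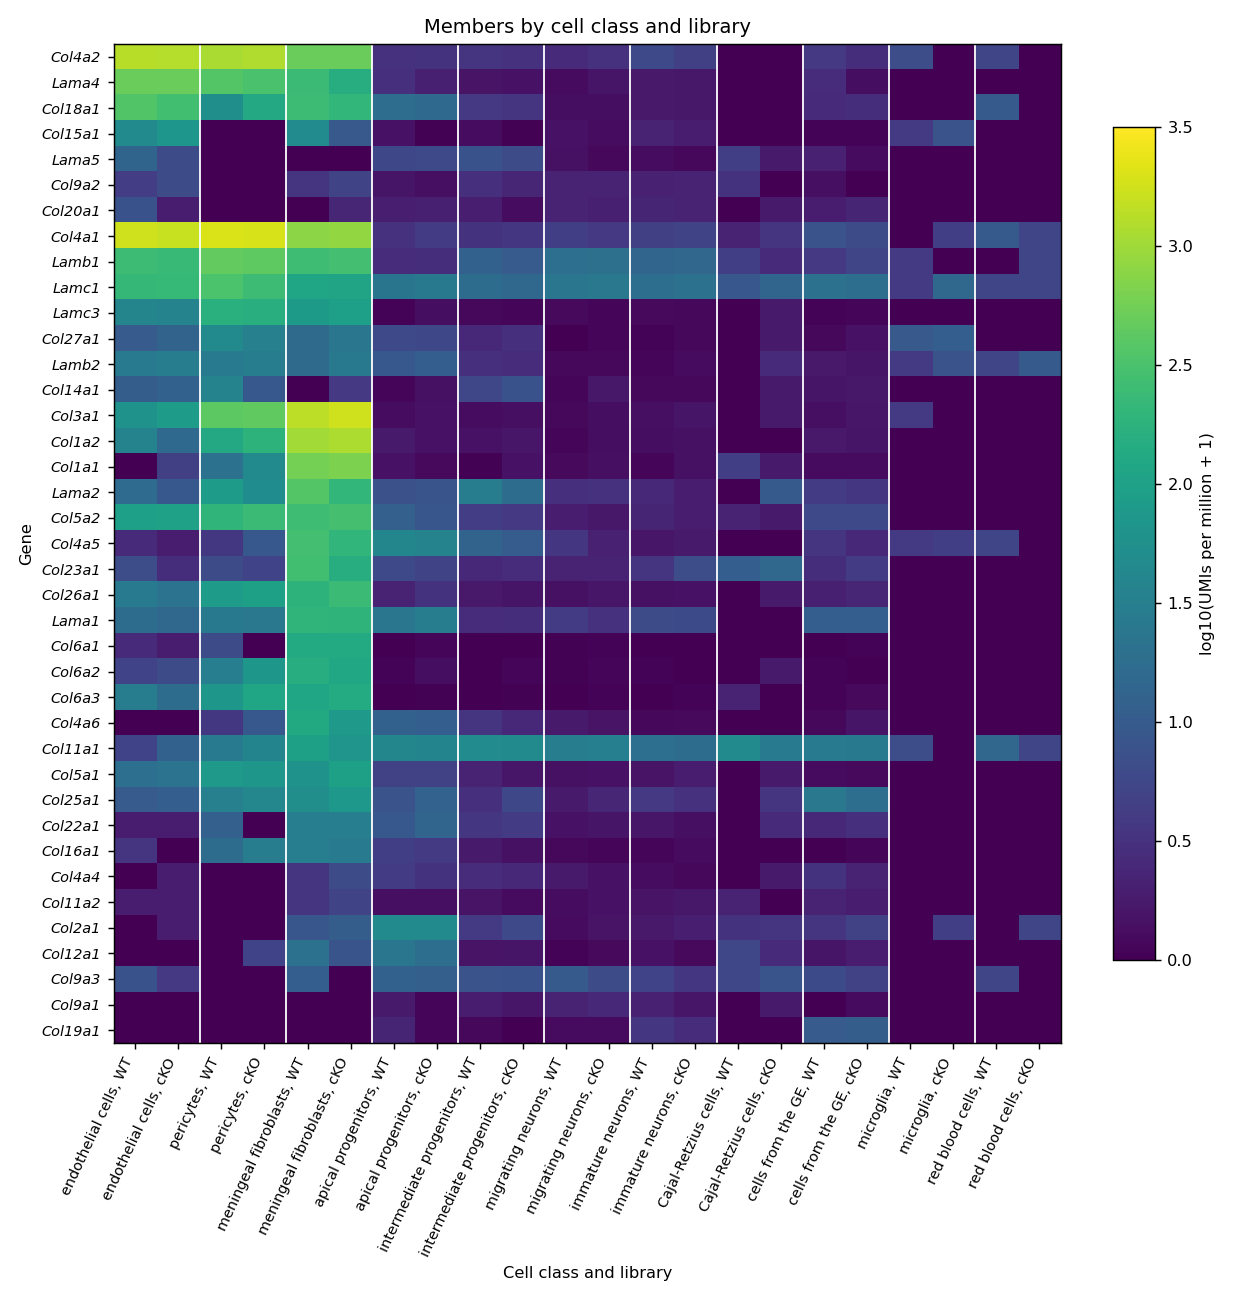
Colors give log10(CPM of UMIs + 1) of the 39 members with at least 100 UMIs (rows, ordered by their highest class) in each cell class and library (columns, WT then cKO). The brightest cells fall in the columns of endothelial cells, pericytes and meningeal fibroblasts, where Col4a1 reaches 2019.9, and a smaller block of genes is brightest in the neural columns.

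The chains of the vessel wall were found in endothelial cells and pericytes. Col4a1, the alpha1 chain of collagen IV present in all basement membranes, reached 2019.9 (95% interval 1877 to 2171) CPM in the WT library and 1929 (1759 to 2111) in the cKO library in pericytes. In endothelial cells it reached 1743 (95% interval 1669.8 to 1819) CPM in the WT library and 1616 (1542 to 1694) in the cKO library, and in meningeal fibroblasts 771 and 866. In APs it lay at 2.21 and 3.11, on 27 and 56 UMIs, below its 8.91 and 4.40 in red blood cells. All collagens together had only 10 and 5 UMIs in red blood cells, so that level is loose. Background and a low level in APs can therefore not be told apart. Col4a2, its partner chain, lies head to head with Col4a1 on chr8, with start sites 21 bases apart, and had the same order of classes apart from the top pair: 1344 and 1275 in endothelial cells, 1133 and 1195 in pericytes and 495 and 496 in meningeal fibroblasts. Lama4, the alpha chain of vascular laminins, was highest in endothelial cells at 502 (95% interval 463 to 544) CPM in the WT library and 508 (467 to 552) in the cKO library, above 364 and 310.0 in pericytes. Its beta and gamma partners Lamb1 and Lamc1 were highest in pericytes, at 457 and 428 and at 317 and 249. Lamb1 and Lamc1 were not limited to these cells, with 18.2 and 18.3 for Lamb1 and 22.8 and 24.0 for Lamc1 in migrating neurons and 21.8 and 25.2 for Lamc1 in APs. Col18a1, the source of endostatin, reached 359 and 272 in endothelial cells, 253 and 207 in meningeal fibroblasts and 17.0 and 14.6 in APs, and Lamc3, a gamma chain, 167 and 155 in pericytes.

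The meningeal fibroblasts held the fibrillar collagens of connective tissue. Col3a1 reached 1419 (95% interval 1304 to 1541) CPM in the WT library and 1793 (1696 to 1894) in the cKO library, and Col1a2 and Col1a1, the chains of collagen I, reached 1034 and 1155 and 588 and 643. Pericytes had 408 and 436 of Col3a1. Collagen VI, a microfibrillar collagen, was found in the same cells, with Col6a1 at 135 and 136. Col4a5 and Col4a6, the chains of the other collagen IV network, whose genes are neighbors on the X chromosome, were also highest there, at 285 and 200.3 and 133 and 77.0, and were next highest in the WT library in APs, at 39.7 and 35.5 and 11.1 and 10.3. Unlike Col4a1 and Col4a2, these chains were thus lower in endothelial cells and pericytes than in meningeal fibroblasts. Of the other collagen IV genes, Col4a4 had different highest classes in the libraries and Col4a3 had too few UMIs to be placed.

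Some members were highest in progenitors or neurons, and others had much of their UMIs there while their level was highest in meningeal fibroblasts. Col2a1, the main collagen of cartilage, was highest in APs at 45.7 (95% interval 42.0 to 49.7) CPM in the WT library and 45.0 (41.9 to 48.2) in the cKO library, and APs held 82.6% and 79.9% of its UMIs. Col12a1, a FACIT collagen, reached 22.5 (95% interval 19.9 to 25.3) CPM in the WT library and 17.2 (15.4 to 19.3) in the cKO library in APs, which held 87.0% and 84.7% of its UMIs. Col9a3, a chain of the FACIT collagen IX, was the other member led by APs, at 11.1 CPM (WT) and 10.5 CPM (cKO). For Col12a1 and Col9a3 the interval of the APs overlapped that of the next class in both libraries. In the WT library meningeal fibroblasts were next, at 20.02 (8.64 to 39.4) CPM for Col12a1 and 10.01 (2.73 to 25.6) for Col9a3. In the cKO library the next class was at 7.002 (2.27 to 16.3) for Col12a1 and 7.19 (3.29 to 13.6) for Col9a3. Of the members with their highest level in meningeal fibroblasts, Col11a1, a fibrillar collagen that joins Col2a1 in cartilage, was at 39.7 and 36.9 in APs and at 48 and 44.7 in IPs, while the meningeal fibroblasts reached 95.1 and 65.8 from far fewer cells. Lama1, also of this kind, the alpha chain of the laminin of early embryos, was at 22.7 and 28.7 in APs, 10.1 and 10.1 in cells from the GE and 195 and 188 in meningeal fibroblasts. Lama2, the alpha chain of muscle and nerve laminin, was at 363 and 204 in meningeal fibroblasts, 29.8 and 16.3 in IPs and 6.37 and 7.23 in APs, and IPs held 55.2% and 36.6% of its UMIs. Col25a1, a collagen anchored in the cell membrane, was at 52.6 and 72.8 in meningeal fibroblasts and at 24.4 and 17.2 in cells from the GE, where a small cluster led by Isl1, Ebf1 and Rarb, 110 WT and 109 cKO cells, held 247 and 204 of its UMIs. Col19a1, a FACIT collagen, was highest in cells from the GE at 9.26 and 9.63.

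**Figure D3:**
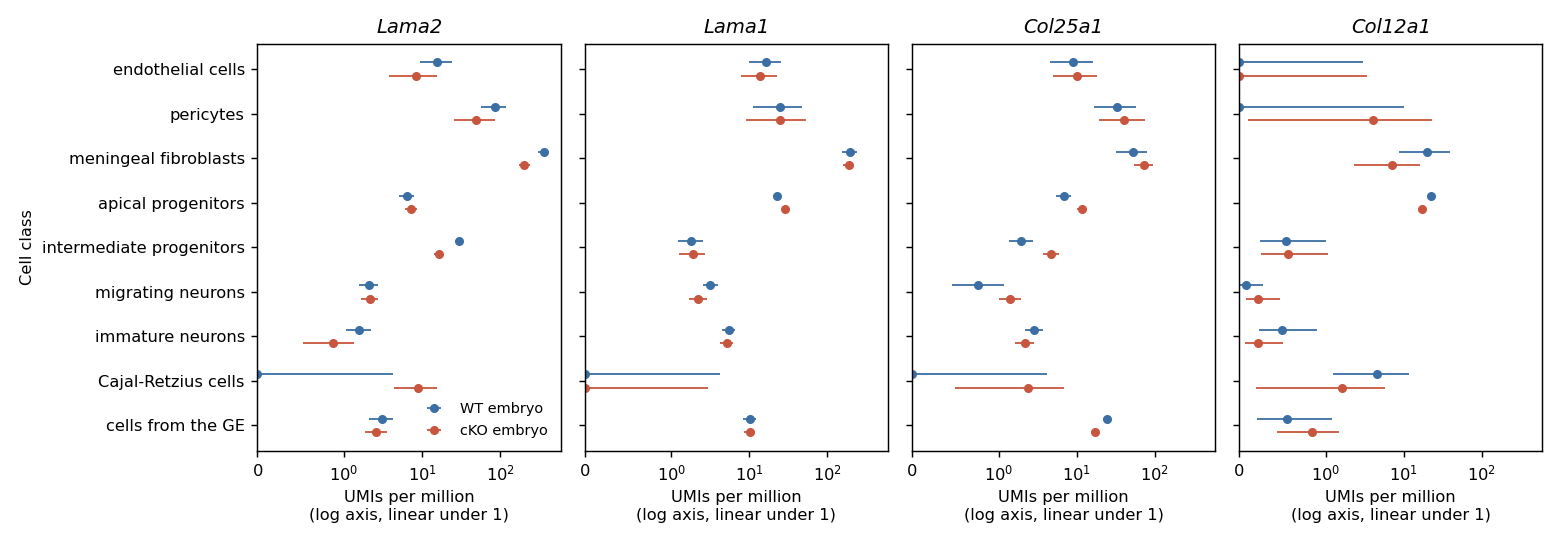
Points give CPM of UMIs for Lama2, Lama1, Col25a1 and Col12a1 (panels) in 9 cell classes (vertical axis) of the WT (blue) and cKO (red) library, on an axis that is linear under 1 and logarithmic above, with exact Poisson 95% intervals of counting error. In IPs, Lama2 lies at 29.8 and 16.3 in WT and cKO, and in APs Lama1 lies at 22.7 and 28.7.

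The first question of the design is which of these genes differ between WT and cKO progenitors in culture. In cKO cultures the laminin alpha chain Lama2 and the membrane collagen Col25a1 were lower, whereas the laminin alpha chains Lama1 and Lama5 and the collagens Col11a1, Col9a1, Col5a3, Col12a1 and Col19a1 were higher. The connective tissue set of the meninges was nearly absent: Col1a1 lay at 0 to 0.736 CPM, Col1a2 at 0 to 0.291 and Col3a1 at 0 to 0.0892. Of the 55 genes, 37 passed the filter for low counts, and the 18 that did not, among them Col3a1, most collagen VI genes and Lamc3, had at most 0.736 CPM in any culture. Among them 15 passed an adjusted p of 0.05 in edgeR's quasi-likelihood test (40.5%), 10 higher and 5 lower in cKO, beside 39.5% of all 14432 genes tested, 19.7% higher and 19.8% lower. The 3 WT and the 3 cKO cultures did not overlap for 20 of the 37 genes, and for 50.4% of all genes. The median log2 fold change of the 37 genes was 0.09, against 0.00 for all genes. The share of members that changed was thus close to that of the whole table, and members are given as single genes from here on. 9 of the 15 calls held in every alternative fit run on them, those of Col11a1, Col9a1, Col5a3, Col12a1, Col19a1, Lama1, Lama5, Lama2 and Col25a1. The number of lower genes, 5, was 8 without WT culture 1, 3 without WT culture 2, cKO culture 1 or cKO culture 2, and 2 without WT culture 3 or cKO culture 3. Over all genes, 2858 were lower in the fit reported and 2040 to 3275 with 1 culture left out. In bulk cultures, fewer cells of a type and less RNA per cell cannot be told apart, and cell type markers moved with the genotype: 8 of 9 tested neuron markers, 6 of 8 of migrating neurons, 5 of 7 of astrocytes and 6 of 11 of APs were lower in cKO, while 5 of 9 of immature neurons and 3 of 11 of APs were higher. Of the immature neuron markers 3 of 9 were lower, and of 9 tested for cells from the GE 2 were higher and 4 lower. Of 7 tested for the oligodendrocyte lineage 1 was higher and 4 were lower. The summed markers of this lineage ran from 4338 to 4815 CPM (WT) and from 3045 to 3644 CPM (cKO). Summed astrocyte markers ran from 4252 to 4650.2 CPM (WT) and from 2685 to 2998 CPM (cKO), and those of immature neurons from 619 to 689.9 and from 854 to 897. Those of cells from the GE ran from 321 to 373 and from 556 to 639, although more of them fell than rose. The part of these marker shifts in the changes below was not tested.

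Within the cultures a few genes carried most of the collagen and laminin counts. In WT cultures 8 genes made up 80.6% of the summed CPM of the 55, and in cKO cultures 82.0%. Lamc1 led in both, with 23.8% and 18.9%, and Col11a1 was next with 11.6% and 17.8%. Per kilobase of exon, the mean level of Lamc1 was 22.2 CPM for WT and 20.3 CPM for cKO cultures, of Lamb2 11.6 and 12.4, of Col4a5 9.39 and 7.81, of Col11a1 7.05 and 12.4, and of Lama5 6.18 and 9.15. Lama5, Lamb2 and Lamc1 were thus the alpha, beta and gamma chains of highest level per length in both genotypes.

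The alpha chains of laminin moved in opposite directions. Lama2 (chr10:26980036-27619758, minus strand) was at 6.21, 4.85 and 11.2 CPM (WT) against 0.736, 0.932 and 1.21 CPM (cKO), listed here and below as WT cultures 1 to 3 against cKO cultures 1 to 3. The groups did not overlap, and Lama2 fell (log2 fold change -2.95 ± 0.33 (SE), adjusted p = 1.31e-05), the largest fall of any member tested. Lama1 (chr17:67697265-67822645, plus strand), at low level, was at 2.34, 1.73 and 2.63 CPM (WT) against 7.41, 6.64 and 6.36 CPM (cKO), and rose (log2 fold change 1.59 ± 0.21 (SE), adjusted p = 4.37e-05). Lama5 (chr2:180176373-180225859, minus strand), an alpha chain of many adult basement membranes, was at 63.2, 70.1 and 77.7 CPM (WT) against 94.8, 113 and 105 CPM (cKO), and rose (log2 fold change 0.57 ± 0.092 (SE), adjusted p = 0.000298). Every cKO culture was above every WT culture for Lama1 and Lama5 and below for Lama2.

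The other laminin chains did not pass the test. Lamc1, the gamma chain of most laminins, was at 180.5, 199.9 and 170.4 CPM (WT) against 166, 168 and 169 CPM (cKO) (log2 fold change -0.13 ± 0.078 (SE), adjusted p = 0.211). Lamb2 was at 59.9, 71.9 and 79.3 CPM (WT) against 68.8, 80.7 and 77.0 CPM (cKO) (log2 fold change 0.10 ± 0.10 (SE), adjusted p = 0.467). The WT values of Lamc1 lay just above the cKO values, and those of Lamb2 overlapped. Lamb1 was at 4.01, 4.01 and 3.93 CPM (WT) against 5.05, 4.37 and 4.29 CPM (cKO) (log2 fold change 0.20 ± 0.18 (SE), adjusted p = 0.415), without overlap but with a small difference. Lama4 was at 2.07, 0.891 and 1.70 CPM (WT) against 1.13, 1.51 and 2.36 CPM (cKO) (log2 fold change 0.09 ± 0.36 (SE), adjusted p = 0.864). Lamb3 was at 2.03, 0.613 and 1.56 CPM (WT) against 1.57, 1.51 and 1.40 CPM (cKO) (log2 fold change 0.068 ± 0.37 (SE), adjusted p = 0.901), and 44.9% of its span is shared with other genes, so some of its reads may be theirs. Both were under 3 CPM, with overlapping groups, as was Lama3. Lama3 was at 0.585, 0.557 and 1.07 CPM (WT) against 0.736, 0.408 and 1.06 CPM (cKO) (log2 fold change 0.002 ± 0.43 (SE), adjusted p = 0.997). Of the 9 laminins tested 2 rose, 1 fell and 6 did not pass (33.3% called, beside 39.5% of all genes).

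Of the fibrillar collagens, 8 were tested and 3 rose, with none lower, where 19.7% of all genes rose and 19.8% fell. Col11a1 (chr3:114030540-114220718, plus strand) was at 92.4, 97.1 and 80.1 CPM (WT) against 158, 158 and 160.5 CPM (cKO). It rose (log2 fold change 0.82 ± 0.081 (SE), adjusted p = 4.12e-06), the smallest p of any member, and the cKO cultures lay within 3 CPM of each other. Col2a1 was at 3.02, 4.96 and 6.07 CPM (WT) against 7.21, 7.51 and 8.29 CPM (cKO) (log2 fold change 0.71 ± 0.22 (SE), adjusted p = 0.0197). Col5a3, a chain of collagen V, was at 3.60, 3.17 and 4.37 CPM (WT) against 5.79, 7.46 and 5.98 CPM (cKO) (log2 fold change 0.78 ± 0.19 (SE), adjusted p = 0.00624). All 3 were without overlap between the genotypes. Col2a1 lost its call without WT culture 2 or cKO culture 3, with an adjusted p of up to 0.0758. Col5a1, another chain of collagen V, did not pass (log2 fold change 0.45 ± 0.24 (SE), adjusted p = 0.157), but was called higher with the replicate number as a block (0.49, adjusted p = 0.0227), without a count filter (0.44, adjusted p = 0.0191) and without WT culture 3 (0.70, adjusted p = 0.0339).

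The FACIT collagens had 5 of 8 tested genes higher and none lower, beside the same 19.7% and 19.8% of all genes. Col9a1, a chain of collagen IX, was at 20.7, 24.2 and 26.8 CPM (WT) against 35.9, 45.5 and 39.8 CPM (cKO) (log2 fold change 0.76 ± 0.12 (SE), adjusted p = 0.000209). Col12a1 was at 5.22, 5.12 and 5.31 CPM (WT) against 7.99, 8.21 and 7.81 CPM (cKO) (log2 fold change 0.62 ± 0.15 (SE), adjusted p = 0.00616). In both, each cKO culture exceeded each WT culture. Col16a1 was at 42.7, 57.9 and 55.9 CPM (WT) against 65.6, 78.9 and 61.3 CPM (cKO) (log2 fold change 0.39 ± 0.12 (SE), adjusted p = 0.0206), and the call was lost without cKO culture 2 (adjusted p = 0.115). Col20a1 was at 5.31, 4.34 and 7.09 CPM (WT) against 6.62, 10.5 and 9.21 CPM (cKO) (log2 fold change 0.64 ± 0.21 (SE), adjusted p = 0.0268), the only call of the 15 with overlapping groups, and it was lost without WT culture 1, WT culture 2, cKO culture 2 or cKO culture 3 (adjusted p up to 0.131). Col19a1 was at 0.225, 0.501 and 0.134 CPM (WT) against 0.687, 1.17 and 1.21 CPM (cKO) (log2 fold change 1.86 ± 0.50 (SE), adjusted p = 0.00935), at a mean under 1 CPM. The FACIT genes that did not pass were Col9a2 at a log2 fold change of 0.29, Col9a3 at -0.045 and Col14a1 at -0.45.

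Of 5 tested collagen IV genes (20% called, beside 39.5% of all genes), none rose and 1 fell, the X-linked Col4a5. It was at 56.1, 63.8 and 69.3 CPM (WT) against 48.5, 55.9 and 53.0 CPM (cKO) (log2 fold change -0.27 ± 0.10 (SE), adjusted p = 0.046), without overlap, and lost its call when any culture but WT 1 was left out (adjusted p up to 0.166), but kept it when sex was added to the model. Its neighbor Col4a6 was at 6.30, 7.85 and 7.09 CPM (WT) against 4.61, 6.12 and 5.26 CPM (cKO) (log2 fold change -0.41 ± 0.18 (SE), adjusted p = 0.0768), also without overlap. Col4a1 was at 5.22, 5.12 and 4.6 CPM (WT) against 5.79, 5.01 and 4.19 CPM (cKO) (log2 fold change 0.0051 ± 0.19 (SE), adjusted p = 0.985). Col4a1 and its partner Col4a2 thus stood at a few CPM in these cultures with overlapping groups. Col4a2 was at 4.68, 4.68 and 5.71 CPM (WT) against 6.57, 4.95 and 5.64 CPM (cKO) (log2 fold change 0.19 ± 0.18 (SE), adjusted p = 0.442), with 13.7% of its span shared with other genes, and Col4a4 was at 0.946, 1.0 and 0.669 CPM (WT) against 0.245, 0.816 and 0.434 CPM (cKO) (log2 fold change -0.83 ± 0.46 (SE), adjusted p = 0.168).

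The remaining falls were in genes of other collagen types. Col25a1 (chr3:130131501-130599877, plus strand) was at 2.48, 2.40 and 3.66 CPM (WT) against 0.981, 0.874 and 0.386 CPM (cKO), and fell without overlap (log2 fold change -1.94 ± 0.35 (SE), adjusted p = 0.000702). Col18a1 was at 1.17, 1.28 and 1.52 CPM (WT) against 0.736, 0.583 and 0.579 CPM (cKO) (log2 fold change -1.06 ± 0.34 (SE), adjusted p = 0.0254), and its call was lost in DESeq2 and without WT culture 2, WT culture 3, cKO culture 2 or cKO culture 3 (adjusted p up to 0.0935). Col26a1, a collagen known from testis and ovary, was at 4.28, 3.79 and 4.15 CPM (WT) against 2.70, 2.50 and 2.89 CPM (cKO) (log2 fold change -0.59 ± 0.20 (SE), adjusted p = 0.0329), lost in DESeq2 and without any culture other than WT 2 (adjusted p up to 0.101). The groups of both were apart, but at levels of 0.579 to 4.28 CPM. The other 12 tested collagens did not pass, with means from 0.410 CPM (Col24a1) to 64.9 CPM (Col27a1) in WT cultures, and of these Col23a1, Col28a1 and Col6a3 had groups without overlap.

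**Figure D4:**
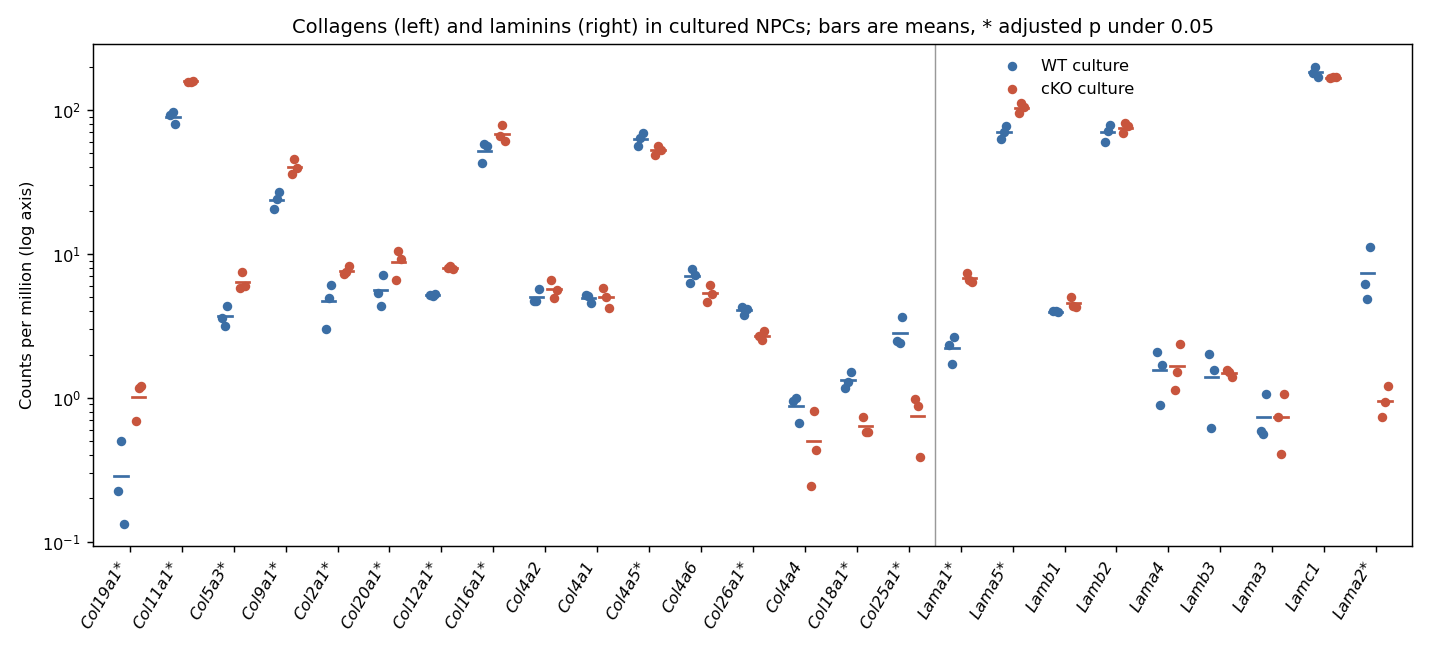
Points give CPM (log axis) of each WT (blue) and cKO (red) culture, with bars at the group means, for the collagens (left of the line) and laminins (right) that passed the test, marked by an asterisk, and for the other tested collagen IV and laminin genes. Lama2 lies between 4.85 and 11.2 CPM for WT and between 0.736 and 1.21 CPM in cKO cultures, and Col11a1 at 80.1 to 97.1 and 158 to 160.5 CPM.

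Genes for proteins that bind, mature or cut collagens and laminins were counted from lists. Of 15 tested basement membrane partners, 7 rose and 2 fell, where 19.7% of all genes rose and 19.8% fell, and the median log2 fold change was 0.29 against 0.00 for all genes. Agrn, the heparan sulfate proteoglycan agrin that binds laminin, was at 566, 625 and 617 CPM (WT) against 986, 947 and 927 CPM (cKO) (log2 fold change 0.66 ± 0.081 (SE), adjusted p = 2.82e-05). Nid1, nidogen, which links laminin to collagen IV, was at 29.7, 28.0 and 33.9 CPM (WT) against 13.3, 13.2 and 13.1 CPM (cKO) (log2 fold change -1.21 ± 0.11 (SE), adjusted p = 1.66e-06). Fbln2, fibulin 2, was at 2.16, 2.34 and 3.66 CPM (WT) against 7.5, 11.1 and 11.4 CPM (cKO) (log2 fold change 1.87 ± 0.23 (SE), adjusted p = 3.14e-05). Agrn and Fbln2 were higher and Nid1 lower in every cKO culture.

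Of 27 tested enzymes and chaperones of collagen maturation, 6 rose and 7 fell (median 0.05), or 48.1% called, beside 39.5% of all genes. Adamts3, a protease that trims procollagen, was at 10.1, 10.8 and 12 CPM (WT) against 33.2, 30.3 and 31.0 CPM (cKO) (log2 fold change 1.52 ± 0.11 (SE), adjusted p = 2.26e-07). Serpinh1, the collagen chaperone HSP47, was at 75.7, 94.6 and 86.5 CPM (WT) against 51.5, 55.6 and 53.1 CPM (cKO) (log2 fold change -0.68 ± 0.093 (SE), adjusted p = 7.3e-05). These 2 moved in opposite directions, without overlap. Of 16 receptors 4 rose and 5 fell (56.2% called, median 0.15), among them Itga7, the alpha chain of a laminin integrin, higher at log2 fold change 0.77 ± 0.095 (SE), adjusted p = 3.06e-05, and the collagen receptors Ddr1 and Ddr2, lower at log2 fold changes of -0.55 and -0.50. Of 11 matrix proteases and inhibitors 1 rose and 3 fell (36.4% called, median -0.31). The membrane proteases split, with Mmp16 at 42.1, 38.8 and 42.4 CPM (WT) against 87.2, 90.6 and 91.9 CPM (cKO) (log2 fold change 1.13 ± 0.083 (SE), adjusted p = 2.74e-07) and Mmp14 at 97.2, 113 and 116 CPM (WT) against 44.8, 49.2 and 43.0 CPM (cKO) (log2 fold change -1.25 ± 0.091 (SE), adjusted p = 2.6e-07).

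The other question is how the members differ between the WT and the cKO embryo in each cell class. Ratios of CPM, cKO over WT, were taken for members with at least 20 UMIs in a class, and an interval of counting error that leaves out 0 on the log2 scale is given as off 0. As a group the members were level in APs, with a log2 ratio of 0.00 (-0.058 to 0.061), and lower in IPs at -0.18 (-0.26 to -0.11), in cells from the GE at -0.14 (-0.23 to -0.04) and in endothelial cells at -0.085 (-0.14 to -0.031). In IPs the collagens stood at 106 and 105 CPM and the laminins at 69.8 and 50.2 CPM, with Lama2 alone at 500 and 260 of the UMIs. Of 28 members in APs, 5 were above and 3 below 0 and 20 spanned it, beside 24.8% of all genes off 0. In IPs 3 of 27 were above and 3 below (all genes 24.5% off 0), in migrating neurons 3 of 28 and 3 (27.6%), in immature neurons 1 of 25 and 3 (24.4%), and in cells from the GE 1 of 22 and 2 (18.7%). In the classes of vessels and meninges, 1 of 21 was above and 3 below in endothelial cells (17.9%), 2 of 17 and 0 in pericytes (10.9%), and 1 of 29 and 6 in meningeal fibroblasts (11.6%). In each neural class most members therefore did not differ by more than counting error between these embryos.

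In APs the members off 0 with most UMIs were Lama1, Col12a1, Col22a1, Col25a1 and Col5a2. Lama1 had 278 UMIs in the WT and 516 in the cKO library (log2 ratio 0.34, 95% interval 0.12 to 0.55), with 0.29 (-0.017 to 0.60) in the cluster led by Tnc, Hes5 and Aldoc, which just spans 0, and 0.36 (0.055 to 0.67) in the mitotic cluster led by Aurkb, Ccnb1 and Plk1. Col12a1 had 275 UMIs in the WT and 310 in the cKO library (log2 ratio -0.38, 95% interval -0.62 to -0.14), with -0.71 (-1.05 to -0.37) in the mitotic cluster and -0.035 (-0.39 to 0.33) in that led by Tnc. Its interval thus left out 0 in the mitotic cluster and spanned it in that led by Tnc. A further AP cluster of low UMI count (median 2777), with 197 WT and 220 cKO cells, is not given separately here. Col25a1 had 84 UMIs in the WT and 210 in the cKO library (log2 ratio 0.77, 95% interval 0.40 to 1.15), and Col22a1, a FACIT collagen, 101 UMIs in the WT and 228 in the cKO library (log2 ratio 0.62, 95% interval 0.28 to 0.97). Col5a2, a chain of collagen V, had 131 UMIs in the WT and 136 in the cKO library (log2 ratio -0.50, 95% interval -0.86 to -0.14). Col4a3, Col26a1 and Lama4 were off 0 on 40 or fewer UMIs in each library, at 1.65 (0.22 to 3.40), 0.96 (0.051 to 1.95) and -0.97 (-1.94 to -0.028), and the last of these and Col26a1 spanned 0 with doublets removed. Col11a1 at -0.10 (-0.28 to 0.067), Col2a1 at -0.024 (-0.18 to 0.13), Lamc1 at 0.21 (-0.014 to 0.43) and Lama5 at 0.055 (-0.44 to 0.56) spanned 0.

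Among the members off 0 in IPs, Lama2 had the most UMIs, with 500 UMIs in the WT and 260 in the cKO library (log2 ratio -0.87, 95% interval -1.09 to -0.65). By cluster, its ratio was -0.67 (-0.92 to -0.42) in the IPs led by Kif26b, Mfap4 and Eomes, -1.62 (-2.32 to -0.96) in those led by Neurog1 and Neurog2, and 0.066 (-0.86 to 1.02) in those led by S-phase histone genes. In the cluster led by Ube2c, Cdc20 and Cenpa, 98 WT and 82 cKO cells, it had 21 UMIs in the WT and 0 in the cKO library. Col25a1 went the other way, with 33 UMIs in the WT and 75 in the cKO library (log2 ratio 1.26, 95% interval 0.65 to 1.89), as did Col2a1 at 0.73 (0.20 to 1.27) and the FACIT collagen Col14a1 at 0.50 (0.066 to 0.95). Col4a5 at -0.33 (-0.64 to -0.015) and Col20a1, on 16 and 5 UMIs, at -1.61 (-3.41 to -0.093) were below 0. Col4a5 spanned 0 at resolutions 0.4 and 1.2 and with doublets removed (-0.28, -0.23 and -0.27). Col20a1 spanned it at resolution 0.4, with at most 5% mitochondrial UMIs and with members among the clustering genes (-0.74, -0.71 and -0.82). With cells of at most 5% mitochondrial UMIs, Col25a1 and Col14a1 spanned 0 in IPs, at 0.31 and 0.018, whereas Lama2 stayed below 0 in every alternative run. In migrating neurons Col25a1 and Col14a1 were above, at 0.88 (0.069 to 1.74) and 2.17 (0.58 to 4.18), and Col9a3, Lama1 and Col4a5 below, at -0.68 (-0.98 to -0.38), -0.53 (-1.03 to -0.032) and -1.22 (-1.89 to -0.58), with Lama1 and Col25a1 spanning 0 there when doublets were removed (-0.50 and 0.82). The clusters of this class differed in share between the libraries, since the cluster led by Tafa1 and Tfap2d made up 6.42% of WT and 21.3% of cKO migrating neurons, and Lama1 spanned 0 within the cluster led by Flrt3 and Frmd4a, at -0.26 (-0.87 to 0.33), and within that led by Unc5d and Sema3c, at -0.69 (-1.92 to 0.47). In cells from the GE Col25a1 was below 0 at -0.50 (-0.76 to -0.25), while within its Isl1 cluster the ratio was -0.26 (-0.53 to 0.016) and this cluster made up 9.21% of cells from the GE in the WT library and 6.64% in the cKO library.

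The vessels and meninges also differed between the embryos, although this Cre is not known to act there. In meningeal fibroblasts Col3a1 was above 0 (log2 ratio 0.34, 95% interval 0.19 to 0.48), and Lama2, Col23a1, Lama4, Col4a5, Col4a6 and Col15a1 were below, with Lama2 at -0.83 (-1.17 to -0.49) and Col23a1 at -0.90 (-1.30 to -0.51). Col3a1 spanned 0 at a clustering resolution of 1.2 (0.061), and Col23a1 when the members entered the clustering (-0.31). Lama2 was thus lower in the cKO library both in IPs and in meningeal fibroblasts. In endothelial cells Col1a2 was at -1.30 (-2.22 to -0.44), Col15a1 at 0.57 (0.044 to 1.10), Col18a1 at -0.40 (-0.62 to -0.18) and Col4a1 at -0.11 (-0.20 to -0.017), and in pericytes Col6a2 and Col18a1 were above 0 at 1.2 (0.025 to 2.44) and 1.25 (0.40 to 2.14), the former not with doublets removed (1.06). These classes hold 24 and 33 endothelial cells, 27 and 18 pericytes, and 102 and 125 meningeal fibroblasts, so each ratio rests on few cells of 1 embryo each.

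Set side by side, called changes in cultures met ratios of the same and of the opposite direction in tissue, and many that spanned 0. Of the 10 members higher in cKO cultures, 1, Lama1, was above 0 in APs (0.34, against 1.59 in culture), 1, Col12a1, was below (-0.38 against 0.62), 5 spanned 0 and 3 had under 20 UMIs. Of the 5 members lower in cKO cultures, Col25a1 and Col26a1 were above 0 in APs (0.77 and 0.96, against -1.94 and -0.59) and 3 spanned 0. Over all genes, 24.8% were off 0 in APs and 24.5% in IPs, and their match with the cultures was not counted. In IPs, Col2a1, higher in culture, was above 0 (0.73, against 0.71 in culture), and Lama2 and Col4a5, lower in culture, were below (-0.87 and -0.33, against -2.95 and -0.27), while Col20a1 at -1.61 and Col25a1 at 1.26 went the other way. The IP ratios of Col4a5, Col20a1 and Col25a1 spanned 0 in some of the alternative runs. Lama2 spanned 0 in APs at 0.18 (-0.23 to 0.61). Col11a1, higher in culture at 0.82, did not differ beyond counting error in APs or in IPs, at -0.10 (-0.25 to 0.043) in the latter. Cultures and embryos differ in growth conditions, in the reads counted (whole gene or 3′ end) and in replication, and the part of each in these differences was not tested.

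**Figure D5:**
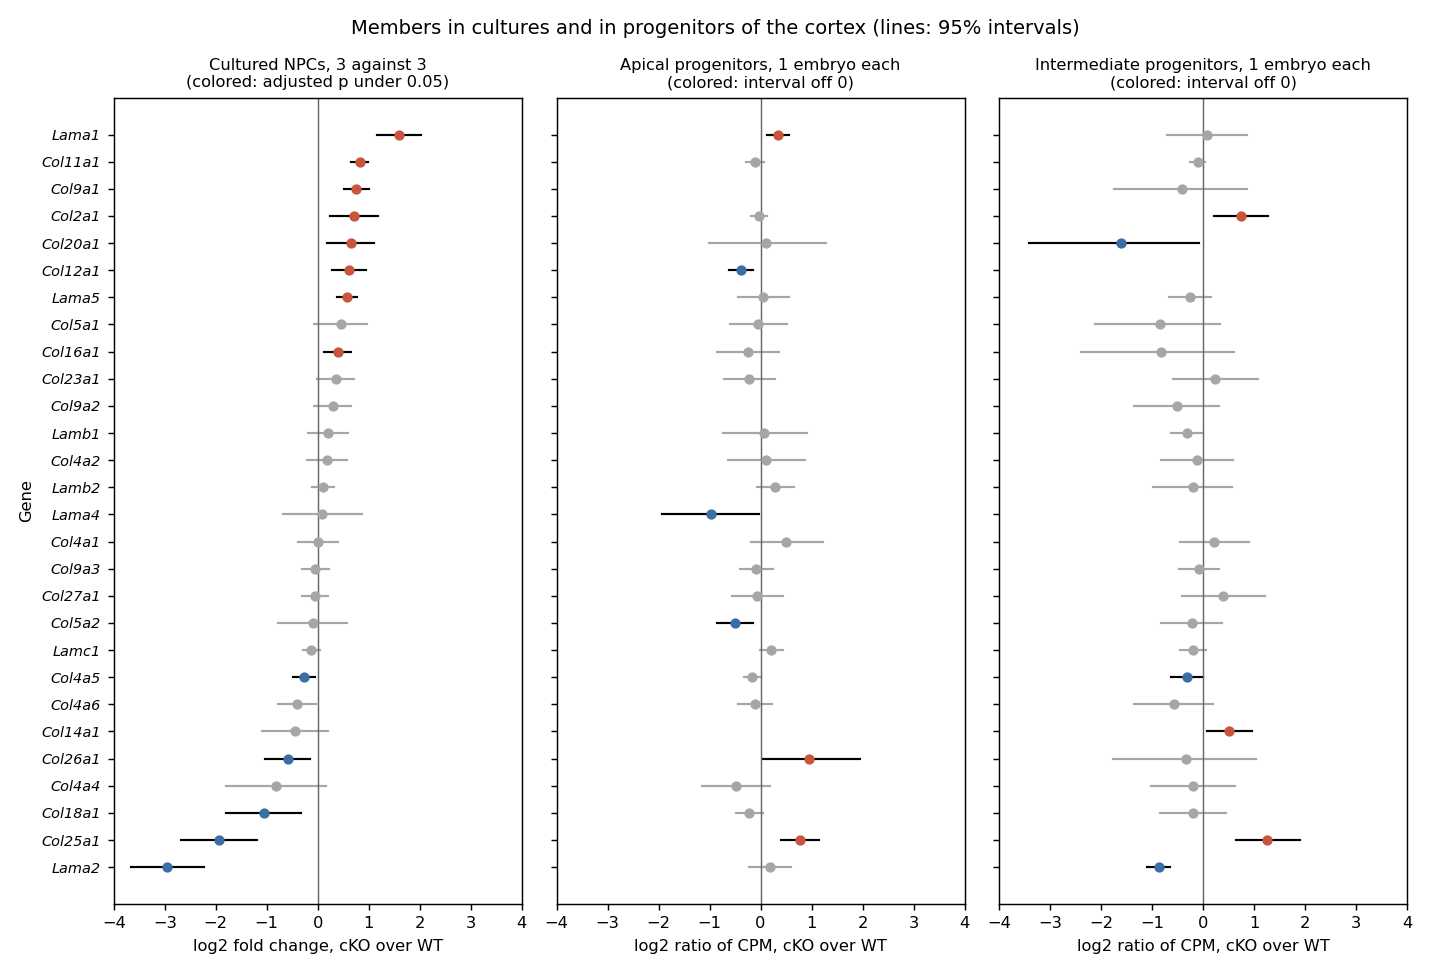
For members with a culture value and at least 20 UMIs in APs or IPs (rows), points give the log2 fold change in cultures (left) and the log2 ratio of CPM in APs (middle) and IPs (right), cKO over WT, with 95% intervals; colored points passed the test (left) or have an interval off 0. Lama1 lies to the right of 0 in cultures and in APs, and Col25a1 to the left in cultures (-1.94) and to the right in APs (0.77) and IPs (1.26).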

How the data were processed

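RNA-seq counts of 3 WT and 3 cKO NPC cultures and single-cell counts of 1 WT and 1 cKO embryo were analysed. For the cultures the authors deposited unnormalized read counts of each gene, from reads aligned to mm10 with HISAT2. For the embryos they deposited unnormalized UMI counts of each gene in each barcode, from Cell Ranger. How reads were assigned to genes, with which annotation and with or without strand, is not given in the sources used here. LACE-seq was not analysed here. Some members enter the counts without a value of their own being reported here.

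Counts of the cultures were filtered with filterByExpr, scaled by TMM and compared over all genes with edgeR 4.0.16 (quasi-likelihood test, Benjamini-Hochberg adjusted p of 0.05) in R 4.3.3. The study's methods name DESeq2 (here 1.42.0), which was run as an alternative, with other scalings and filters, the sex of the cultures, the replicate number as a block, and each culture left out. Cells with 200 or more genes and no more than 10% mitochondrial UMIs were clustered with Seurat 5.3.0 (2000 variable genes without the 55 members, 30 principal components, 20 neighbours, resolution 0.8, no integration) and named from marker lists: a name needed at least 3 raised markers. Doublets (288 WT and 437 cKO, Scrublet in scanpy 1.11.5) were removed only as an alternative. UMIs were summed per class, levels have exact Poisson and ratios conditional exact binomial 95% intervals, and a count of 0 allows up to 3 counts. The fits and the ratio intervals were tested on simulated data. These were drawn from the models that the fits and intervals assume, so they say nothing of the spread between cells or embryos.

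The members, gene lists, tests and alternatives were chosen with earlier results of these data known, and APs without their cluster of lowest UMI count were added after the cells had been clustered. Those past the test at a mean of at least 1 CPM, and all laminin and collagen IV genes tested, are given per culture, and Col18a1 and Col19a1, below that mean over the 6 cultures, were included after their values had been seen. Partner genes come from the 3 largest rises and falls of each list without overlap at a mean of at least 5 CPM. For 1 gene, 3 against 3 cultures allow no exact permutation p under 0.1.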

Additional observations from a re-analysis of the deposited data

Results flagged for a closer look

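Some members had a called change in the cultures and a ratio off 0 in the opposite direction in progenitors of the tissue, and the difference between the systems itself was not tested. Col12a1, higher in cKO cultures, had a log2 ratio of -0.38 in APs, and Col20a1, also higher, had -1.61 in IPs on 16 and 5 UMIs. Col25a1, lower in cKO cultures, had 0.77 in APs and 1.26 in IPs, and Col26a1, also lower, had 0.96 in APs on 14 and 40 UMIs. The IP ratios of Col20a1 and Col25a1 and the AP ratio of Col26a1 spanned 0 in some of the alternative runs.

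Other members had ratios off 0 with opposite signs in different cell classes of the same pair of embryos, which was not tested either. Col25a1 was at 0.77 in APs and 1.26 in IPs but at -0.50 in cells from the GE. Lama1 was at 0.34 in APs and -0.53 in migrating neurons, but the latter class had a different make-up of clusters in the libraries and Lama1 spanned 0 within each of its clusters with a value. Col23a1, a collagen anchored in the membrane, was at 1.28 in immature neurons and -0.90 in meningeal fibroblasts. The culture groups hold 3 samples each and were not searched for outlying cultures.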

How the results depend on the processing

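Of the 15 called members, 9 passed in every alternative fit of the cultures, and the 6 others lost their call in at least 1, as given with each gene. The members lower in cKO cultures, 5 in the fit reported, were 3 with DESeq2 and 2 to 8 when a culture was left out, and the members higher, 10, were 8 to 13. Over all genes, 2040 to 3275 were lower and 2068 to 3070 higher when a culture was left out. When a culture was left out, the receptors numbered 2 to 4 higher and 3 to 5 lower, and the proteases and inhibitors 3 to 5 lower. With the replicate number as a block, 11 members were higher, Col5a1 being the one gained, and 5 lower. Deviations of cultures with the same number correlated at 0.264, -0.047 and 0.116 (numbers 1, 2 and 3). Only WT culture 1, cKO culture 1 and cKO culture 3 correlated best with their own number. The values thus do not show that the numbers pair the cultures. They cannot exclude it either, since sex also enters them: WT culture 2 and cKO culture 2 had 5903 and 0 Y-linked counts.

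None of the fold changes that turned sign in the cultures was called. Col4a1 was at -0.0080 without a count filter and at -0.0018 with the block. Lama3 was at -0.0021 with RLE scaling, -0.0013 with upper-quartile scaling, -0.010 without a filter, -0.0035 with the block, -0.12 with sex as a covariate and -0.0056 with DESeq2. Lama4 was at -0.080 with sex as a covariate. With a culture left out, the ranges crossed 0 for Col27a1 (-0.22 to 0.054), Col4a1 (-0.13 to 0.12), Col5a2 (-0.35 to 0.18), Col9a3 (-0.20 to 0.047), Lama3 (-0.36 to 0.38), Lama4 (-0.26 to 0.34), Lamb2 (-0.011 to 0.20) and Lamb3 (-0.28 to 0.41).

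The share of member UMIs in vascular and meningeal cells was 42.8% (WT) and 41.1% (cKO) at resolution 1.2, 45.7% and 44.8% with doublets removed, and 42.2% in cKO with at most 5% mitochondrial UMIs. At resolution 0.4 no cluster could be named meningeal fibroblasts, and with the members among the clustering genes none pericytes, so these settings give no share. Of the 31 members with the same highest class in both libraries, 13 kept it at the former setting and 25 at the latter. It was kept by 26 at resolution 1.2, by 27 with at most 5% mitochondrial UMIs and by 30 with doublets removed. In IPs 1 member was above 0 with at most 5% mitochondrial UMIs and 1 was below 0 with doublets removed, against 3 each. Col15a1 and Col1a2 in endothelial cells turned to -0.063 and 0.72 at resolution 0.4, and Col4a5 in meningeal fibroblasts to 0.11 with members among the clustering genes. Over all alternatives, 203 values of ratios off 0 kept their interval off 0, 33 kept only their direction and 3 changed sign. The cause of these shifts was not tested. The 16 members with under 100 UMIs could not be placed in a class, and ratios on few UMIs show only large differences.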

Other observations

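The RNA of the partner genes was spread over several classes, not all of them classes that led a member. Npnt, P4ha1, Itga6, Lair1 and Timp2 were highest in microglia in both libraries, and Mmp24 and Timp4 in Cajal-Retzius cells. Neither class was the highest of any member in both libraries. The collagen chaperone Serpinh1 and the enzymes Plod2, Ppib and Pcolce had their highest level in pericytes in both libraries, as did Nid1 and Agrn, while Hspg2 and Sparc were highest in endothelial cells. Fras1 and Ntn4 were highest in APs, Ddr1 in IPs and Adamts3 in immature neurons, so that parts of the matrix machinery were read in neural cells.

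Promoters of 40 members were found in RefSeq (GRCm38.p6), 44 in all, each from 250 bases before to 50 after the start. The SP motif GGGCGG, searched on both strands, was present in 26 of 44 (59.1%) and in 35.7% of all 32851 promoters. The EGR motif GCGNGGGCG was in 4 of 44 (9.09%) and 5.55%, and the AP-1 motif TGANTCA in 1 of 44 (2.27%) and 7.81%. The windows of Col4a1 and Col4a2 share 78 bases that hold both the EGR and the SP motif, so a site there is counted for both genes. The paired windows of Col6a2 and of Lamb3 overlap as well. These are descriptions of letters in a window and say nothing of binding.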
